A study of Homo sapiens with 12 samples.

Results

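The response to double-stranded RNA was examined in human A549 cells that lack RNase L (RLKO), by setting RLKO cells transfected with poly(I:C) against untreated RLKO cells. Members were all genes with at least 1 FPKM (sequenced fragments for each kilobase of transcript, corrected for library size) in either of those 2 groups, apart from rows whose status marked a failed estimate. They numbered 18100 of the 58626 distinct gene identifiers in the deposited table, 11395 of them protein-coding and 6705 of other classes. A549 is a lung carcinoma line of epithelial origin, and poly(I:C) is a synthetic double-stranded RNA. The treated cells (RLKO_PIC) received 500 ng/ml poly(I:C) by transfection and were collected at 6 h, and the untreated cells (RLKO) carried the same knockout. Parental A549 cells (WT), untreated or given the same dose for the same time (WT_PIC), are used below only for comparison. Each of the 4 groups had 3 samples, 12 in all, and total RNA was depleted of rRNA after ERCC spike-in RNAs had been added. The sources used here do not say whether the knockout line is a single clone, or whether untreated cells received the transfection reagent alone.

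Cells recognise double-stranded RNA through the helicases RIG-I and MDA5, which signal through the adaptor MAVS to the transcription factors IRF3 and NF-kB. These switch on type I and type III interferon genes and inflammatory cytokines, and secreted interferon then acts through JAK kinases, STAT factors and IRF9 on the interferon-stimulated genes. Oligoadenylate synthetases, themselves interferon-stimulated, sense the same RNA and make the second messenger that activates RNase L, a nuclease that cuts single-stranded RNA throughout the cell. In cells without RNase L that last branch ends at the messenger, while the sensor and interferon branches are in place.

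The table gave 1 FPKM value per group over its 3 samples, so no value of a single sample and no spread between samples can be given. Significance therefore rests on the q-values of the authors' deposited table, and "rose" and "fell" below mean q under 0.05 there. Log2 changes were taken on FPKM scaled by the spike-in rows, after a pseudocount of 1 FPKM was added, which understates the change of weakly expressed genes. Over 49 spike-in rows the deposited treated value divided by the untreated one had a median of 1.07, with quartiles of 0.917 and 1.23, and 32 of the 49 were higher in treated cells. The scale across all 4 groups set the treated column 1.13 times higher than the untreated one, a shift of 0.18 on the log2 scale, so FPKM as deposited give a log2 change that is larger by about that amount. Epithelial keratins were abundant in RLKO cells, with KRT7 at 1400 FPKM untreated and 1333 treated and KRT8 at 825 and 944, whereas EPCAM stood at 0.65 and 0.56. Of 10 leukocyte markers 8 were under 1 FPKM in both groups, the exceptions being ITGAX and CD68, all 5 endothelial markers were under 1 FPKM, and so were 5 of 7 fibroblast markers, with COL1A1 at 2.59 and 2.06 and LUM at 1.17 and 0.505.

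Poly(I:C) changed few genes past the threshold, and nearly all of those rose. Of 17346 members that the authors tested, 98 rose (0.565%) and 6 fell (0.0346%). Of the 98 rises 94 were protein-coding. Interferon, sensor and interferon-stimulated gene lists held 34 of the 98, NF-kB, chemokine and cytokine lists 8 and the immediate early list 6, while 50 were in none of these. The median level of the 94 coding genes was 1.82 FPKM untreated, against 15.3 over all coding members. Of the 98, 37 were under 1 FPKM before treatment and so are members only through the treated group, where they had to be higher. After treatment 12 of them exceeded 100 FPKM: IFIT2, CXCL8, ISG15, PPP1R15A, NFKBIA, IRF1, OASL, DDX58, PMAIP1, ZC3HAV1, IFNL3 and PLAUR. Summed over the 98 rows the deposited level went from 496 to 4847 FPKM. The coding ones among them took 0.0677% of the summed FPKM of nuclear coding members untreated and 0.878% treated. The log2 change was 1 or more in 93 of the 98, 2 or more in 47, 3 or more in 22 and 4 or more in 12. By size alone, regardless of the authors' test, 627 members (3.46%) had a log2 change of 1 or more and 1881 (10.4%) had -1 or less. Only 177 of the 627 and 650 of the 1881 were protein-coding.

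**Figure D1:**
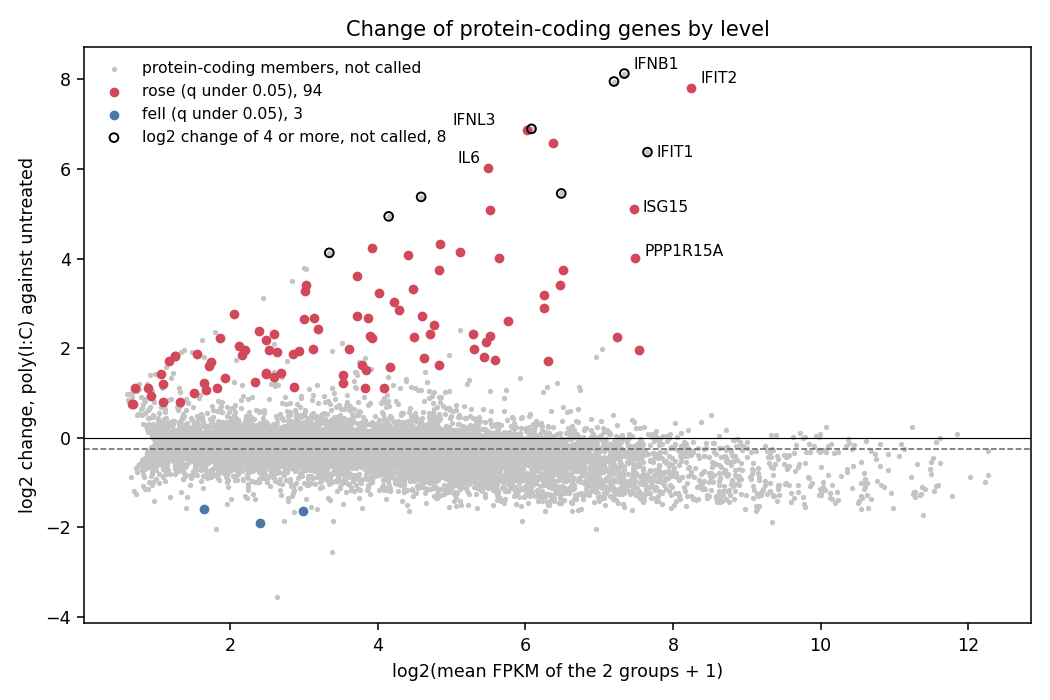
Log2 change of each nuclear protein-coding member (vertical axis) against the log2 of its mean FPKM over the 2 RLKO groups plus 1 (horizontal axis); red points rose, blue points fell, open circles mark 8 genes at 4 or more that were not called, and the dashed line is the median of coding members. The 94 coding rises form an upper fan reaching 7.81 for IFIT2, while the main cloud lies below 0 and sinks further at the abundant end.

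The promoters of the rising genes are shown first because some of them hold the letters that 2 of the transcription factor families named above are known to bind. RefSeq windows on GRCh38.p14 were found for 78 of the 94 coding genes that rose and searched over the 250 bases before the gene start, on both strands. The interferon-stimulated response element (ISRE), bound by IRF and STAT complexes, was searched as GAAANNGAA, which reads TTCNNTTTC on the other strand, and the NF-kB element as GGAANTTCC or GGANTTTCC. A gene counted as matched if any of its windows matched, with a mean of 1.41 windows per gene among the 78 and 1.47 among coding members. An ISRE match stood in 21 of the 78 (26.9%) and in 7.57% of 9255 coding members with a window. Taken window by window, which is not the same measure, it stood in 6.88% of all 35116 windows. An NF-kB match stood in 11 of the 78 (14.1%), in 2.68% of those coding members and in 1.86% of all windows. A match is only a match of letters, and these shares carry no test. The stretches below are written 5′ to 3′ along the gene, with matches in capitals (overlapping matches run together). They belong to rising genes with an ISRE match, ISG15 (chr1:1013372-1013416, plus strand), IFI44 (chr1:78649760-78649788, plus), HERC5 (chr4:88456983-88457066, plus), IFI6 (chr1:27672265-27672360, minus) and IFNL3 (chr19:39245405-39245437, minus), and to IFIT1 (chr10:89392496-89392541, plus).
ISG15: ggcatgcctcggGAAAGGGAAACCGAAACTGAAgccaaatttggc
IFI44: ggcacactgagtTTCAGTTTCctttctct
HERC5: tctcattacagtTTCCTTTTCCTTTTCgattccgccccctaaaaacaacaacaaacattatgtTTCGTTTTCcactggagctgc
IFI6: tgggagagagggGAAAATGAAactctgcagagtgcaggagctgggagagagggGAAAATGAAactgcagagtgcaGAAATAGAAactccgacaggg
IFNL3: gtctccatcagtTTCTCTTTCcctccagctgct
IFIT1: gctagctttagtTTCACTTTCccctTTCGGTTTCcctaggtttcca
ISG15, HERC5 and IFI6 each held 3 matches within these stretches, and the IFI6 stretch repeats the same 9-letter match in a longer repeat.

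The NF-kB stretches come from the cytokine genes IL6 (chr7:22727116-22727148, plus strand) and CXCL8 (chr4:73740466-73740498, plus), the feedback inhibitor TNFAIP3 (chr6:137867180-137867212, plus), the stress phosphatase subunit gene PPP1R15A (chr19:48872244-48872276, plus) and IFNB1 (chr9:21077987-21078019, minus).
IL6: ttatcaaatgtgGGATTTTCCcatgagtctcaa
CXCL8: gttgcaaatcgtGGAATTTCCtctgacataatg
TNFAIP3: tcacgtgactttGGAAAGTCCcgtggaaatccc
PPP1R15A: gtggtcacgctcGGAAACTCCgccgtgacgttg
IFNB1: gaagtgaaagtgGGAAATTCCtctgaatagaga
Both kinds of match stood in 5 of the 78 promoters, those of IFIH1, NFKBIZ, CD274, NFKBIA and OAS3.

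Interferon ligands showed the largest changes of all lists, although most of them missed the authors' threshold. Of 21 type I and III interferon genes listed, 6 were members, 2 rose and none fell, and the median log2 change of the 6 was 6.88. All but IFNE passed the 1 FPKM floor only in treated cells, so this median is set in part by the choice of members. IFNL3, a type III interferon at chr19:39243553-39245129, was listed at 0 in untreated cells and at 128 FPKM in treated cells. IFNL4, a neighbouring type III gene annotated as a polymorphic pseudogene, was listed at 0 and then at 3.93 FPKM. Both rose. IFNB1, the interferon beta gene at chr9:21077105-21077963, stood at 0.0519 FPKM untreated and 322 treated, the highest treated level of the list, with p = 0.199 in the authors' deposited table. IFNL1 stood at 0.0781 and 292 FPKM, and IFNL2 at 0.0319 and 134 FPKM, and neither was called. IFNL2 and IFNL3 are near-identical copies, so the split of reads between them is uncertain. The interferon alpha genes were listed at or near 0: none reached 0.3 FPKM in either group, with IFNA1 highest at 0.25 untreated and 0.24 treated. A listed 0 may be a failed estimate, as set out below. IFNE, an epithelial interferon, stood at 4.86 FPKM untreated and 3.64 treated and was not called.

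**Figure D2:**
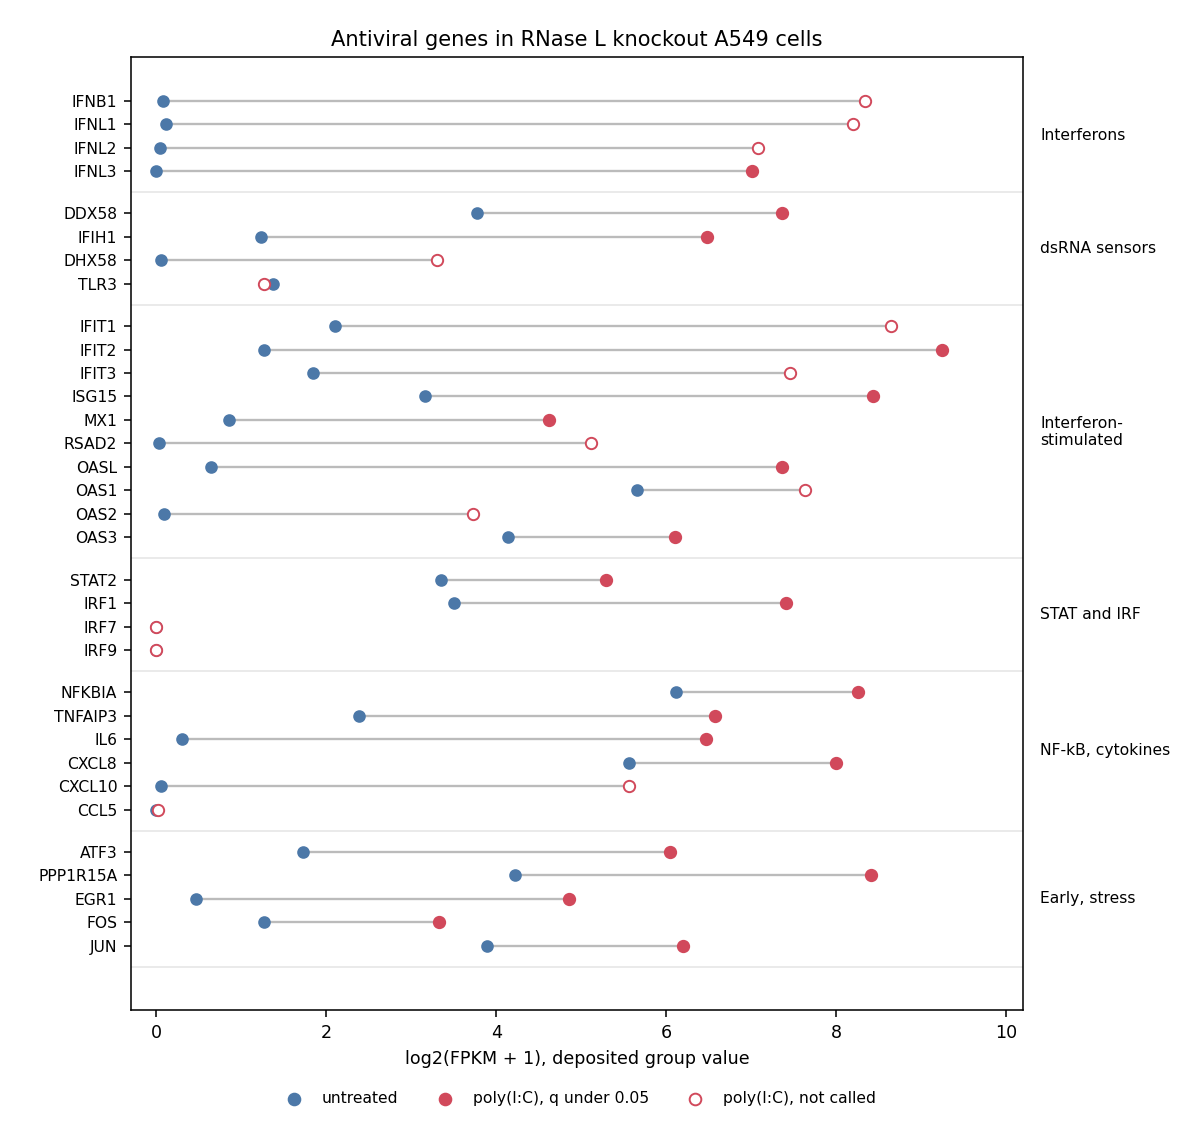
Deposited FPKM of antiviral genes in RNase L knockout cells as log2(FPKM + 1) (horizontal axis), untreated (blue) and with poly(I:C) (red, filled where q was under 0.05); each group is 1 pooled value without error. The 4 interferon genes start near 0 and end between 128 and 322 FPKM, filled only for IFNL3, while TLR3, CCL5, IRF7 and IRF9 hardly differ between the groups or are listed at 0.

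Among the sensors of double-stranded RNA cytosolic helicases rose, and the adaptor and kinases downstream of them were not called. In a list of 21 such genes 18 were members, 4 rose and none fell, with a median log2 change of 0.36. IFIH1, which encodes MDA5, rose from 1.35 to 88.4 FPKM (log2 change 5.09). DDX58, which encodes RIG-I, rose from 12.7 to 163 FPKM (3.41). DDX60, a helicase tied to RIG-I signalling, rose from 2.64 to 39.9 FPKM (3.32), and its neighbour DDX60L from 13.6 to 63.7 (1.97). ZC3HAV1, the zinc-finger antiviral protein that binds CpG-rich RNA, rose from 15.3 to 135 FPKM (2.89). DHX58, which encodes LGP2, stood at 0.0421 and 8.86 FPKM without a call. The kinase gene EIF2AK2 (PKR) stood at 20.8 FPKM untreated and 38.2 treated and ADAR, the editor of double-stranded RNA, at 63.6 and 116, neither called. Of the signalling parts, MAVS stood at 15.6 and 13.6 FPKM, TBK1 at 32.9 and 23.4, and IRF3 at 54.6 and 54.7. The endosomal receptor TLR3 stood at 1.58 and 1.40 FPKM.

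The oligoadenylate synthetase family, the branch that would feed RNase L, was present and partly induced. Of the list's 7 genes 6 were members, 2 rose and none fell, and the median log2 change was 1.79. OASL, a family member without synthetase activity, rose from 0.564 to 164 FPKM (log2 change 6.57). OAS3, which makes the messenger on long RNA, rose from 16.6 to 67.9 FPKM (1.79). OAS1 had the highest treated level of the family, 197 FPKM against 49.5 untreated, with the same log2 change of 1.79 but p = 0.0489 in the authors' deposited table, and was not called. OAS2 stood at 0.0666 and 12.2 FPKM. PDE12, which degrades the messenger, stood at 6.88 and 8.34 FPKM, and ABCE1, described as an inhibitor of RNase L, at 136 and 77.4 FPKM. Neither of these was called.

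The interferon-stimulated effectors formed the largest group of rises. Of 61 genes listed 52 were members, 20 rose and none fell, and 49 of the 52 had a log2 change above 0, with a median of 1.51 against -0.30 over all members. Of the 52, 14 reached 1 FPKM only in treated cells. IFIT2, which binds viral RNA and restrains translation, rose from 1.41 to 604 FPKM. Its log2 change of 7.81 was the largest of any called gene. IFI44, of little known function, rose from 1.17 to 39.6 FPKM (4.07) and its neighbour IFI44L from 0.877 to 8.36 (2.18). IFI6, an endoplasmic reticulum protein that restrains flaviviruses, rose from 2.52 to 52.2 FPKM (3.75). MX1, a dynamin-like GTPase that blocks viral nucleocapsids, rose from 0.812 to 23.5 FPKM (3.61). The guanylate-binding protein genes GBP1 and GBP4 rose to 13.8 and 6.32 FPKM. The apolipoprotein L genes APOL1, APOL2 and APOL6 rose to 32.7, 76.8 and 11.4 FPKM, and PARP14, an ADP-ribosyltransferase, from 12.7 to 93.7. Smaller rises were those of SAMD9 (2.33), the exonuclease ISG20 (2.31), HELZ2 (2.24), XAF1 (1.71), SP110 (1.58), SAMHD1, which depletes nucleotides (1.23), and TDRD7 (1.12), all as log2 changes.

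Several well known effectors changed by as much as these and were still not called. IFIT1 stood at 3.28 FPKM untreated and 397 treated, a log2 change of 6.37, and IFIT3, its partner in one complex, at 2.58 and 175 (5.45). In the authors' deposited table p was 0.0139 for IFIT1 and 0.0131 for IFIT3, short of the value that the adjustment asked for: the largest p called was 0.00025 and the smallest not called 0.0003. RSAD2, which encodes viperin, stood at 0.0248 and 33.5 FPKM (4.94), and CH25H, the cholesterol hydroxylase, at 0.0344 and 14.3 (3.76). At the other end of the list IFITM2 stood at 14.4 and 14.8 FPKM, PNPT1 at 136 and 132, and NMI at 15.6 and 17.2. IFI27, an effector strongly induced in many tissues, was listed at 0 in both groups, which may be a failed estimate.

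Most of the ISG15 system rose. ISG15 is a ubiquitin-like protein that is attached to other proteins by a dedicated enzyme chain. Of 6 genes listed 5 were members, 4 rose and none fell, with a median log2 change of 2.27. ISG15 itself rose from 7.94 to 344 FPKM, 43.3-fold on deposited values and a log2 change of 5.10. HERC5, its main ligase, rose from 1.47 to 54.3 FPKM (4.33), and HERC6, a related ligase gene beside it, from 3.67 to 24.2 (2.27). USP18, the protease that removes ISG15 and also dampens interferon receptor signalling, rose from 1.79 to 7.48 FPKM (1.46). The conjugating enzyme UBE2L6 stood at 18.9 and 21.5 FPKM without a call, and the activating enzyme UBA7 was under 1 FPKM in both groups.

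In the pathway between interferon and these genes, 2 of 12 member genes rose. The list of receptors, JAK kinases, STAT and IRF factors held 16 genes, none of its members fell, and the median log2 change was 0.51. IRF1, a transcription factor induced by interferon and by NF-kB, rose from 10.4 to 169 FPKM (3.73). STAT2 rose from 9.19 to 38.1 FPKM (1.77). JAK2 stood at 5.33 and 18.7 FPKM and IRF2 at 9.98 and 22.9, both uncalled. The receptor genes IFNAR1 and IFNAR2 stood at 13.9 and 16.8 and at 6.66 and 12.9 FPKM, while IFNLR1, the type III receptor chain, was under 1 FPKM in both groups at 0.78 and 0.80. IRF7 and IRF9 were listed at 0 in both groups. Genes used by all cells, such as RPS18 and RPL7A, are listed at 0 as well, so a 0 in this table may be a failed estimate and no level is read from it.

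Some NF-kB feedback genes rose, and none of the NF-kB subunits was called. None of the 12 subunit and kinase genes rose or fell (1 was higher at an unadjusted p under 0.05 in the authors' deposited table), with a median log2 change of 0.26. The highest was RELB, at 9.25 FPKM untreated and 18.6 treated. Of 17 members among the inhibitors and feedback regulators 4 rose and none fell, with a median of 1.06. TNFAIP3, the ubiquitin-editing enzyme A20, rose from 4.22 to 93.9 FPKM (4.02). NFKBIA, the inhibitor that holds NF-kB in the cytoplasm, rose from 68.0 to 303 FPKM (1.96). NFKBIZ, a nuclear co-activator, rose from 6.29 to 46.0 FPKM (2.52), and TRAF1, a signalling adaptor, from 1.19 to 8.40 (1.96). ICAM1, an adhesion molecule, stood at 0.207 and 5.25 FPKM without a call.

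Cytokine and chemokine genes responded unevenly. Of 10 chemokine members 2 rose and none fell, with a median log2 change of 0.94, and of 11 cytokine members 2 rose and none fell, with a median of 0.70. IL6 rose from 0.234 to 87.5 FPKM. Its log2 change of 6.02 was the fourth largest of the called genes. IL1A, which encodes interleukin 1 alpha, rose from 1.03 to 13.0 FPKM (2.64). CXCL8, which attracts neutrophils, was already expressed and rose from 46.3 to 254 FPKM (2.26). CCL20 rose from 1.19 to 14.5 FPKM (2.68). The interferon-inducible chemokine CXCL10 stood at 0.0350 and 46.1 FPKM (5.37) and CXCL11 at 0 and 14.0, neither called. CCL2 was the most abundant chemokine, at 465 FPKM untreated and 495 treated, and CXCL5 stood at 161 and 134. CCL5, TNF, CCL3 and CCL4 were listed at or near 0 in both groups, and no level is read from a 0. In the list of cytokine receptor inhibitors, which was drawn without USP18, none of the 10 members was called. SOCS3 came closest, at 12.9 and 35.8 FPKM with p = 0.0004 in the authors' deposited table.

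Some immediate early factors rose, as did single genes of the stress and cell death programmes. Of 28 immediate early members 6 rose and none fell, with a median log2 change of 0.62. EGR1 rose from 0.384 FPKM to 28.0 (4.24), ATF3 from 2.31 to 64.7 (4.15), KLF4 from 6.16 to 37.0 (2.24), JUN from 13.8 to 72.6 (2.14) and FOS from 1.40 to 9.04 (1.92). All 5 encode transcription factors. The sixth, ZFP36, encodes a protein that destabilises AU-rich mRNAs and rose from 19.2 to 74.9 FPKM (1.74).
In the integrated stress response list, which was drawn without ATF3, only PPP1R15A was called among 29 members. It encodes GADD34, the subunit that directs dephosphorylation of eIF2 alpha, and it rose from 17.6 to 340 FPKM, 19.2-fold on deposited values. DDIT3 (CHOP) stood at 21.0 and 32.7 FPKM, ASNS at 102 and 66.6, and CHAC1 at 2.16 and 5.33, all uncalled, and the list's median was -0.12, or 0.05 without spike-in scaling.
Of 27 apoptosis members 2 rose and none fell, both of them BH3-only activators of cell death. PMAIP1 (NOXA) rose from 12.5 to 138 FPKM (3.19) and BBC3 (PUMA) from 2.60 to 24.6 (2.67). TNFRSF10B, which encodes a TRAIL receptor, stood at 69.5 and 118 FPKM without a call. The list's median was -0.06, or 0.11 without scaling. A separate list of 14 p53 targets was drawn without PMAIP1, BBC3 and ATF3, so its count does not cover these called genes. None of the 14 was called: GADD45A stood at 13.3 and 32.6 FPKM, GADD45B at 15.7 and 36.9, and CDKN1A, which encodes p21, at 30.7 and 37.6.

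Other rises included genes outside the lists. EFNA1, a ligand of Eph receptors, rose from 1.83 to 28.5 FPKM (3.23). PLEKHA4 rose from 0.290 to 14.1 FPKM (3.41) and HIP1R, an endocytic adaptor, from 4.78 to 41.9 (2.72). CD274, which encodes the immune checkpoint ligand PD-L1, rose from 1.64 to 14.7 FPKM (2.42). NLRC5, the activator of MHC class I genes, rose from 3.51 to 18.9 FPKM (1.98) and was the only called gene among 7 MHC class I members. For 10 of the 18 genes of that list both values were 0, TAP1, PSMB8 and HLA-B among them, so the class I genes themselves cannot be read here. PLAUR, the urokinase receptor, rose from 32.4 to 123 FPKM (1.72), and PTGS2, the inducible cyclooxygenase, from 5.78 to 20.8 (1.52). CYP1A1, a target of the aryl hydrocarbon receptor, rose from 0.147 to 1.05 FPKM and MAP2 from 0.162 to 1.06, the smallest rises, at log2 changes of 0.76 and 0.75. Histone genes HIST1H2AE, HIST1H2BG, HIST1H4F, HIST1H2AA and HIST1H1T rose from levels under 1 FPKM, to between 1.27 and 6.13. They share sequence with abundant copies, so their counts are uncertain. The abundant histone genes were not called, with HIST1H3B at 3320 FPKM untreated and 4001 treated.

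Some called genes were neighbours, with 13 pairs of called members within 50 kb. The same count was not made over all members, so no excess of neighbours is read from it. IFI44L and IFI44 lie on the same strand of chromosome 1, separated by 3650 bases. IFNL3P1, IFNL3 and IFNL4 lie on chromosome 19 within the type III interferon cluster. PLEKHA4 and PPP1R15A lie on opposite strands of chromosome 19, with starts facing away from each other and 3759 bases between them, and APOL2 and APOL1 are placed likewise on chromosome 22, with 13055 bases between. HERC6 and HERC5 are 14005 bases apart on chromosome 4, and DDX60 and DDX60L 37927 bases apart on the same chromosome. AL158206.1, a noncoding row that rose to 4.01 FPKM, begins 1188 bases past the end of ACER2, which rose from 1.11 to 3.98. AC009950.1, annotated as antisense, overlaps SP110 by 6931 bases and rose from 0.449 to 3.94 FPKM. The sources used here do not say whether the libraries kept the strand, so reads of SP110 and of the antisense row cannot be told apart.

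Of the 6 members that fell 3 were protein-coding, and none is an antiviral gene. RYR3, an intracellular calcium release channel at chr15:33310945-33866121, fell from 7.22 to 1.37 FPKM (log2 change -1.91). AKR1C4, an aldo-keto reductase at chr10:5195462-5218949, fell from 10.7 to 3.18 FPKM (-1.62). COX7A1, a muscle form of a cytochrome oxidase subunit at chr19:36150922-36152869, fell from 3.63 to 0.641 FPKM (-1.58). Their untreated levels in RLKO cells were higher than in WT cells, where they stood at 1.70, 2.12 and 1.34 FPKM. In WT cells RYR3 stood at 5.63 and COX7A1 at 5.19 FPKM after poly(I:C), both called higher there, which is the opposite direction. AKR1C4 stood at 1.87 FPKM in WT_PIC cells. The AKR1C genes are close copies, so reads may be split among them: AKR1C3 stood at 2909 FPKM untreated and 1108 treated, a log2 change of -1.57, without a call. The noncoding falls were the processed pseudogene AC005229.1 (60.2 to 14.7 FPKM), the pseudogene AL772337.3 (22.6 to 6.63 FPKM) and RF00003, an snRNA row carrying the Rfam name of U1, from 7985 to 2285 FPKM. Each has sequence relatives in the genome, so its share of reads is uncertain.

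Beyond the called genes, most members were somewhat lower after poly(I:C), and the abundant ones the most. The median log2 change of the 11395 coding members was -0.26, a level of 0.836 times the untreated one, with quartiles of -0.49 and -0.06, and 81.1% of them were below 0. Without spike-in scaling that median was -0.10. The members of other classes had a median of -0.41. To sort genes by a level that the comparison did not use, nuclear coding members were ranked by their FPKM in untreated WT cells. The median log2 change went from -0.06 for the 382 genes under 1 FPKM to -0.24 for the 3360 at 10 to 30 FPKM and -0.88 for the 422 at 300 FPKM or more. Without scaling the same bins had medians of 0.04, -0.07 and -0.70, in the same order. The size of the median over all coding members rests on the spike-in scale, and its cause was not tested. Fewer cells and less RNA per cell cannot be told apart in RNA of whole cultures. The cause of the step with level was not tested. The share that rose went the other way, from 8.38% of the lowest bin to 1.78% of that at 1 to 3 FPKM and 0.387% of that at 10 to 30, and no gene above 100 FPKM in untreated WT cells rose. In the lowest bin 137 of the 382 genes, with 29 of its 32 rises, were members only through the treated group. Its share and its median change are therefore set in part by the choice of members, and the pseudocount also shrinks changes at such levels. The bin of 1 to 3 FPKM had a median of -0.17.

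**Figure D3:**
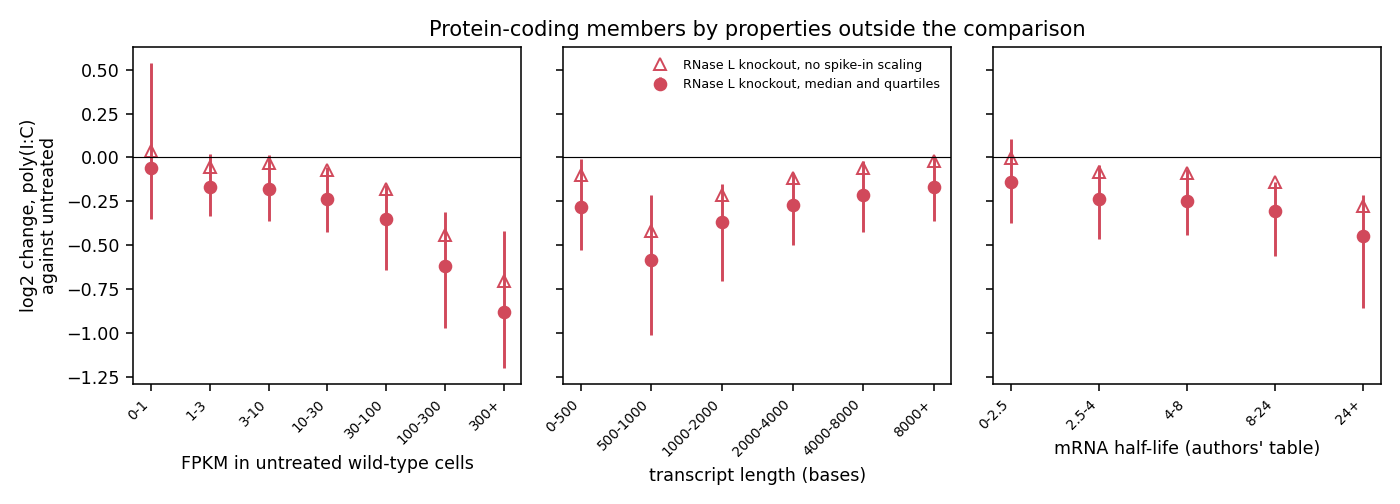
Median log2 change of nuclear coding members with quartiles (filled circles and bars) and the median without spike-in scaling (open triangles), by FPKM in untreated wild-type cells, transcript length and mRNA half-life. The medians step down from -0.06 to -0.88 with level and from -0.14 to -0.45 with half-life, and lie lowest at 500 to 1000 bases among the length bins. The lowest level bin, at -0.06, is set in part by genes that reached 1 FPKM only in treated cells.

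Transcript length and mRNA half-life, both columns of the deposited table, moved with level. Among length bins the median log2 change was lowest, at -0.58, for the 335 genes of 500 to 1000 bases and was -0.17 for the 1026 genes of 8000 bases or more. Within genes of 2000 to 4000 bases the step with level was still seen, from -0.19 under 10 FPKM to -0.70 at 100 FPKM or more in untreated WT cells. The change also moved with length within genes at 100 FPKM or more in untreated WT cells. Their median was -0.80 under 1000 bases and -0.82 at 1000 to 2000 bases. It was -0.70 at 2000 to 4000 bases and -0.58 at 4000 bases or more. The half-life, for which the header gives no unit and which the authors took from another study, was under 2.5 in 959 genes with a median log2 change of -0.14 and 24, its highest value, in 668 genes with a median of -0.45. GC content showed no such step, with medians between -0.25 and -0.27 in all 5 bins. Of the rises with a listed half-life 41 of 55 were under 4, against 48.5% of all coding members with a value, but only 58.5% of the 94 had a value, so this comparison is void. Their median transcript length was 3143 bases, against 3675 for all coding members.

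The ribosomal protein and respiratory chain lists had the lowest medians. Both hold abundant genes, with untreated sums of 101948 and 22640 FPKM over the listed genes. All nuclear coding members at 300 FPKM or more in untreated WT cells had a median of -0.88. Whether these lists differ from other genes of like level was not tested. None of 70 cytosolic ribosomal protein members rose or fell, 69 of the 70 had a log2 change below 0, and the median was -0.97. RPS21 stood at 3937 FPKM untreated and 2121 treated, and RPL8 at 2129 and 2199. Of 61 members for the nuclear-encoded respiratory chain and ATP synthase 1 fell (COX7A1) and 60 were below 0, with a median of -1.06. UQCRQ stood at 1044 and 503 FPKM and UQCRC1, the exception, at 95.3 and 126. At an unadjusted p under 0.05 in the authors' deposited table, 14 of these 61 and 2 of the 70 ribosomal members were lower, against 2.72% of all members tested, so the ribosomal count is near the background.
Genes of DNA replication and mitosis, 29 members without a call, had a median of -0.38, with PCNA at 522 and 261 FPKM and MKI67 at 72.0 and 76.3. Heat shock chaperones had a median of -0.33 over 11 members without a call, and HSPA8 stood at 3960 and 1967 FPKM. Endoplasmic reticulum chaperones, 17 members without a call, had a median of -0.24, with HSPA5 at 103 and 99.6 FPKM. Sterol genes had a median of -0.31 over 18 members without a call. The targets of NRF2, which is constitutively active in A549, had a median of -0.39 over 20 members, of which AKR1C4 fell. Nuclear and structured noncoding RNAs, 20 members without a call, had a median of -0.66, the third lowest of the lists, with 17 below 0 and 7 lower at an unadjusted p under 0.05 in the authors' deposited table. Among them MALAT1 stood at 5659 and 6123 FPKM and NEAT1 at 95.9 and 71.0. The reference genes GAPDH and ACTB stood at 3552 and 2737 and at 1814 and 1596 FPKM.

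**Figure D4:**
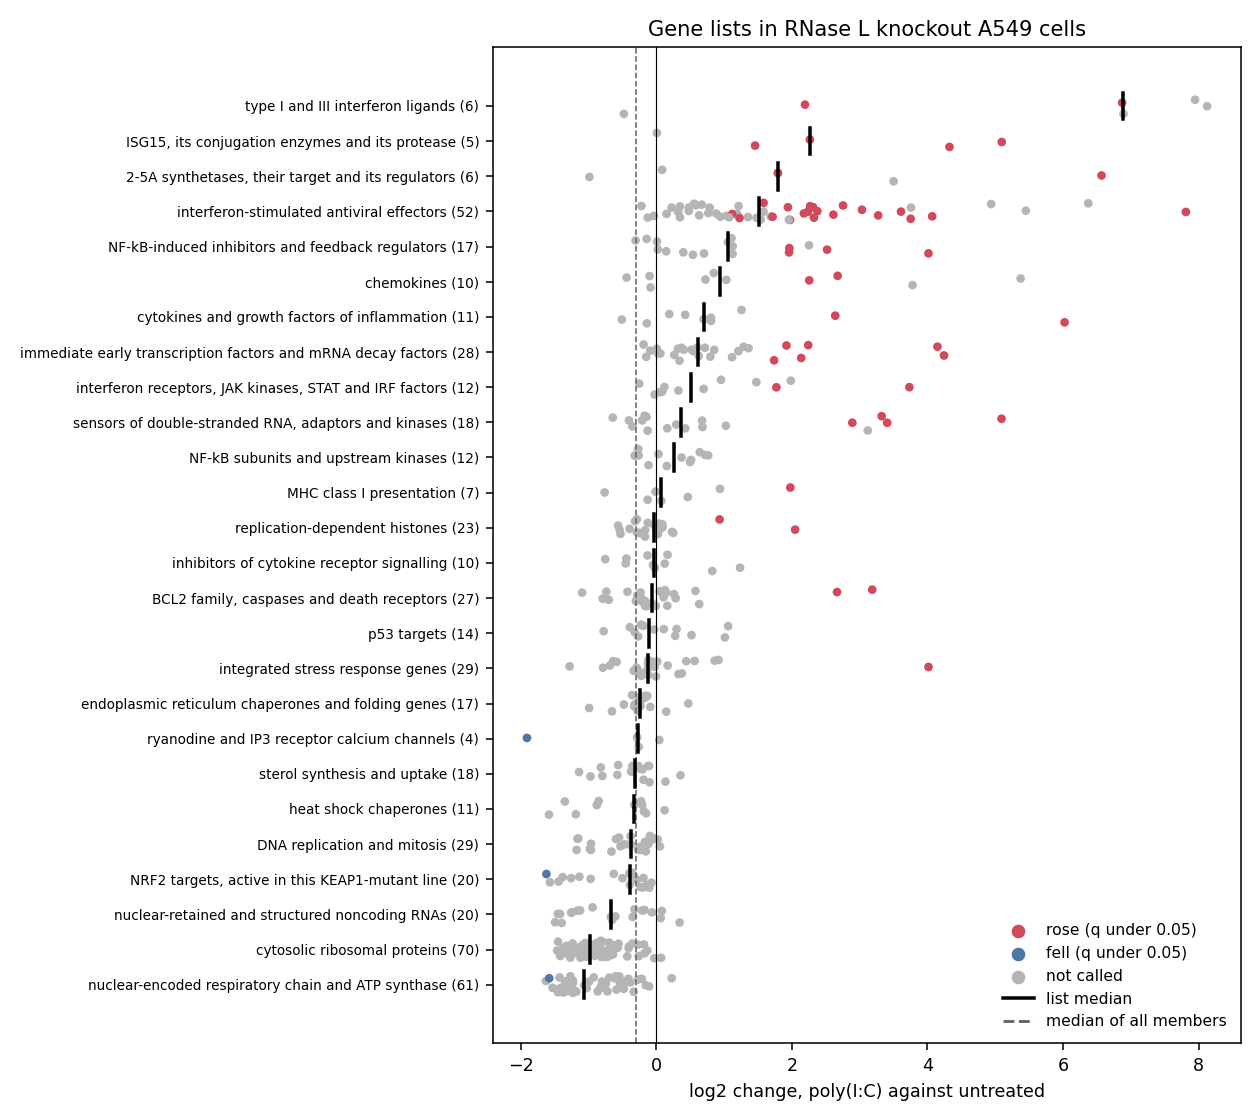
Log2 change of every member of 26 gene lists (horizontal axis; 1 row per list with its number of members), with called members in red (rose) or blue (fell), the list median as a black bar and the median of all members as a dashed line. The interferon, ISG15 and oligoadenylate synthetase lists lie at the top with medians of 6.88, 2.27 and 1.79, and the ribosomal and respiratory chain lists at the bottom with -0.97 and -1.06.

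The same genes were set beside their change in parental cells, each genotype against its own untreated cells. Of 17346 members tested, 2.87% were called higher and 4.21% lower in WT cells by the authors' q. Of the 98 that rose in RLKO cells 93 were also called higher in WT cells, which is 94.9% of the RLKO rises and 18.4% of the 506 members called higher in WT. The other 5 were IFI44, CD274, IFI44L, SLC1A3 and MAP2, and all 98 had a log2 change above 0 in WT cells. The difference between the genotypes was not tested. On the spike-in scale the change was larger in RLKO cells for 26 of the 98 and larger in WT cells for 72, and without scaling for 17 and 81. It exceeded the other genotype's by 1 or more in 3 genes toward RLKO and in 20 toward WT, and without scaling in 2 and 37. Those at either end were picked after their values were seen. MAGI2, a membrane scaffold gene, reached 5.08 FPKM in RLKO_PIC and 0.869 in WT_PIC cells, with log2 changes of 2.23 and 0.44. ISG15 changed by 5.10 in RLKO and 4.30 in WT cells. In the other direction NFKBIZ changed by 2.52 in RLKO and 5.53 in WT cells, EGR1 by 4.24 and 7.01, and FOS by 1.92 and 4.59. SLC1A3, a glutamate transporter gene, was listed at 0 and 2.77 FPKM in RLKO cells and at 0.0143 and 37.8 FPKM in WT cells. Antiviral genes with near-equal change on the spike-in scale were OASL (6.57 in RLKO and 6.59 in WT cells), IFI6 (3.75 and 3.84), IRF1 (3.73 and 3.69) and OAS3 (1.79 and 1.81), while IFIH1 changed by 5.09 and 6.07 and MX1 by 3.61 and 4.51. Without scaling the RLKO minus WT difference was -0.31 for OASL, -0.45 for IFI6, -0.37 for IRF1 and -0.44 for OAS3, and its median over the 98 went from -0.30 to -0.69. The median change of coding members was -0.76 in WT and -0.26 in RLKO cells on the spike-in scale, and -0.23 and -0.10 without scaling.

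**Figure D5:**
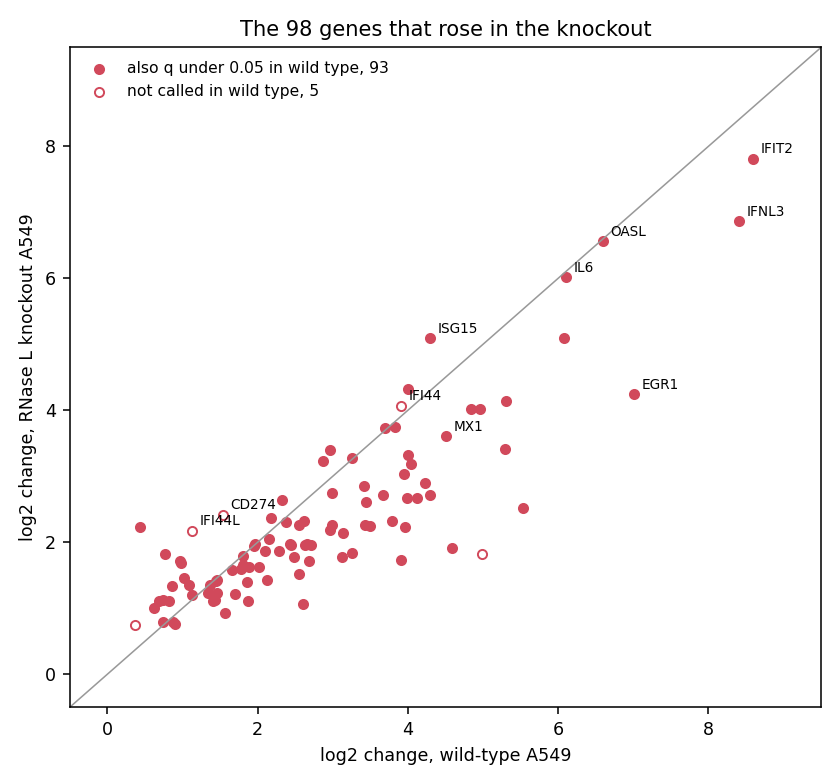
Log2 change on poly(I:C) in RNase L knockout cells (vertical axis) against that in wild-type cells (horizontal axis) for the 98 genes that rose in the knockout; filled points were also called in wild type (93), open points were not (5), and the line marks equal change. OASL and IL6 lie near the line, ISG15 above it, and EGR1 and IFNL3 below it.

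Large changes from a very low untreated level were mostly not called by the authors' test. Of 64 coding members with a log2 change of 2 or more, 46 were called. Among those with at least 1 FPKM untreated 33 of 38 were called, and among those above 0 but under 0.1 FPKM untreated 0 of 11 were. Of the 3 listed at 0 untreated, IFNL3 and GBP4 were called and CXCL11 was not. The 11 include IFNB1, IFNL1, IFNL2, CXCL10, RSAD2, OAS2 and DHX58. Further uncalled genes were RAET1L, a ligand of the NK cell receptor NKG2D, at 0.0119 and 18.3 FPKM, and NOCT, a circadian phosphatase, at 8.90 and 58.5. Of 281 members of other classes with a log2 change of 2 or more, 272 were listed at 0 untreated, 206 were not tested and 1 (IFNL4) was called. At an unadjusted p under 0.05 280 members (1.61% of those tested) were higher and 471 lower in the authors' deposited table. The membership threshold left 439 genes between 1 and 1.1 FPKM inside, of which 2 were called, and 518 between 0.9 and 1 FPKM outside, of which 3 were called.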

How the data were processed

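Total RNA of 12 samples, 3 in each of 4 groups, was sequenced after rRNA depletion; the series' design text calls the samples independent, without saying whether they were separate cultures. The tools, per the submitters' processing notes, were Cuffdiff 2.2.1, TopHat2 2.0.6, Bowtie2 2.0.2, Trimmomatic 0.32 and FastQC, on the build GRCh38.p12, and no settings are stated. The authors deposited 1 FPKM value per group, with p-values and q-values for poly(I:C) against untreated cells, per the file headers. Lengths in bases, GC in percent and a half-life score from another study are also deposited, per the file headers. Read depth is unknown, so no counting interval can be given.

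All 58671 gene rows were matched to GENCODE release 29 for class and position. Rows with the status HIDATA (86) and 45 repeated identifiers were left out. The scale of a group was its median ratio, across the 49 ERCC rows averaging 1 FPKM or more, to the geometric mean of the 4 groups. A pseudocount of 1 FPKM was added before taking log2. Since values were pooled, no test across samples could be made and the authors' q-values under 0.05 were used as they stand. The smallest deposited p was 5e-05, shared by 88 members, and the smallest q 0.0107, so ranks among called genes come from size.

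Named were any called gene, by a rule giving the largest rises, every fall and up to 6 called and 4 uncalled members of each list. The members and the gene lists were chosen with earlier results of these data known. Some genes are not reported here. Alternatives were other pseudocounts, filters and scales. Scripts were tested on simulated data, and Python 3.11.15 with pandas 2.3.3 was used.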

Additional observations from a re-analysis of the deposited data

Results flagged for a closer look

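Some rows under 1 FPKM in both RLKO groups, outside the members, still passed the authors' test. There were 18 such rows called higher and 2 called lower in the authors' deposited table. Of the 18, 10 were listed at 0 in untreated cells. Protein-coding genes among them were ABCC9, a potassium channel regulator, at 0.0833 and 0.907 FPKM, the growth factor PGF at 0.223 and 0.847, TAC3, a tachykinin, at 0.0374 and 0.793, PLSCR2 at 0 and 0.713, IL10RA, an interleukin 10 receptor chain, at 0.0203 and 0.621, and C2CD4A at 0.0258 and 0.588. OASL2P, a pseudogene of the oligoadenylate synthetase family, was listed at 0 and 0.424 FPKM. The lower rows were SPOCK3, at 0.765 and 0.200 FPKM, and LINC02081, at 0.561 and 0.164. All 6 of these coding rises reached higher levels in WT_PIC cells, between 1.40 and 6.59 FPKM. These genes were picked after their values were seen.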

How the results depend on the processing

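No paired analysis was possible because the deposited columns hold 1 pooled value per group, and for the same reason no sample could be left out in turn. No called gene changed direction under any pseudocount or scale tried. The 98 rises became 99 with the authors' p adjusted over members alone (MAFF was added and none lost), 74 at a floor of 5 FPKM and 116 with no floor. At q under 0.01 there were 0 rises and 0 falls, since the smallest deposited q is 0.0107; at the unadjusted p the counts are those given above. Of the 6 falls 3 were protein-coding.

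The overall shift rests on the scale. The median over all members, -0.30, was -0.18 with a pseudocount of 5, -0.16 without scaling, -0.0022 when scaled to the members' own median ratio and -0.12 with no floor. The coding median, -0.26, was -0.10 without scaling, 0.061 on the members' median ratio and -0.14 with no floor. Members at a log2 change of 1 or more numbered 627, or 282 with a pseudocount of 5 and 386 at a floor of 5 FPKM. Members at -1 or less numbered 1881, or 1142 with a pseudocount of 5 and 889 on the members' median ratio. List medians near 0 (cytokine receptor inhibitors, stress response, apoptosis, p53 targets and histones) changed sign without scaling, to 0.13, 0.05, 0.11, 0.03 and 0.15, and 4 more (endoplasmic reticulum, heat shock, sterol and calcium channel genes) did so only on the members' median ratio. With pooled values the spread between samples is unknown.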
